A study of Mus musculus with 4 samples.

Results

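The genes described here are 10 transcripts whose products restrain signalling through the ERK mitogen-activated protein kinase (MAPK) pathway. They are the dual-specificity phosphatase genes Dusp1, Dusp2, Dusp4, Dusp5, Dusp6 and Dusp7, the Sprouty genes Spry1, Spry2 and Spry4, and the Sprouty-related gene Spred1. They were listed by symbol, and all 10 were found among the 14159 genes of 1 expression table of primary mouse squamous cell carcinomas, malignant tumours of squamous epithelium. The table holds 2 libraries of tumours with an inducible knockout of Kdm4a, a histone lysine demethylase gene, and 2 libraries of control tumours. Per the labels' protocols, RNA was taken from uncultured tumours and polyadenylated RNA was selected. None of the sources used here gives the driver of the knockout, the strain, age or sex of the mice, the timing of induction or any allele the controls may carry.

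When a growth factor binds a receptor tyrosine kinase, adaptor proteins activate Ras, which starts a relay of RAF, MEK and ERK kinases. Active ERK induces genes for its own restraint: dual-specificity phosphatases remove phosphate from both the threonine and the tyrosine of an activated MAP kinase, and Sprouty and Spred proteins act upstream, at the level of receptors, Ras and RAF. Among the phosphatases, DUSP1, DUSP2, DUSP4 and DUSP5 are inducible nuclear enzymes, whereas DUSP6 and DUSP7 are cytoplasmic and selective for ERK. Squamous carcinomas commonly depend on EGF receptor signalling, and transcripts such as DUSP6 and SPRY2 are often used as readouts of ERK activity.

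Values are taken to be FPKM, fragment numbers scaled to transcript length and to library size, although the deposited sheet is named for another unit, CPM. Comparisons of levels between genes rest on that reading of the unit, and the read depth is unknown. Both control columns carry one name, so the controls are called library a and library b. Separate animals or tumours are not recorded for the libraries, so p-values measure only the spread between these libraries, which may be technical. Kdm4a itself stood at 14.9 and 14.7 FPKM in the knockout libraries and at 29.6 and 27.7 FPKM in the control libraries (log2 fold change -0.91, SE 0.07, limma adjusted p = 0.000774). The squamous markers Krt5 and Krt14 were abundant in all 4 libraries, at 1188 to 1570 FPKM in knockout and 2235 to 2370 FPKM in control. Across the 12046 genes tested, 30.1% were called higher and 33.8% lower in knockout at an adjusted p under 0.05, so a call by itself is common in these data.

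The calls of the 10 genes, which were chosen with earlier results of these data known, differed between roles and among the nuclear phosphatase genes. The genes for the cytoplasmic ERK phosphatases, the Sprouty genes and Spred1, 6 genes in all, were lower in knockout, at 0.313 to 0.464 times the control mean. Of the nuclear inducible phosphatase genes, Dusp1 and Dusp2 were called higher, and Dusp4 and Dusp5 were not called. Thus 6 of 10 were lower, against 33.8% of all tested genes, and 2 of 10 were higher, against 30.1%. At a log2 fold change of at most -1 the count was 5 of 10 (Dusp6, Dusp7, Spry1, Spry2 and Spred1), against 10.2% of all tested genes. The median log2 fold change over the 10 genes was -0.93, and it was -0.03 over all genes tested. Dusp9, a cytoplasmic ERK phosphatase gene outside the 10 and named after its values were seen, was not called (log2 fold change -0.04). All 10 genes passed the filter of at least 1 FPKM in at least 2 libraries. Dusp2 would not have passed on its control libraries alone (0.777 and 1.27 FPKM), so it was tested only through the group in which it was higher.

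**Figure D1:**
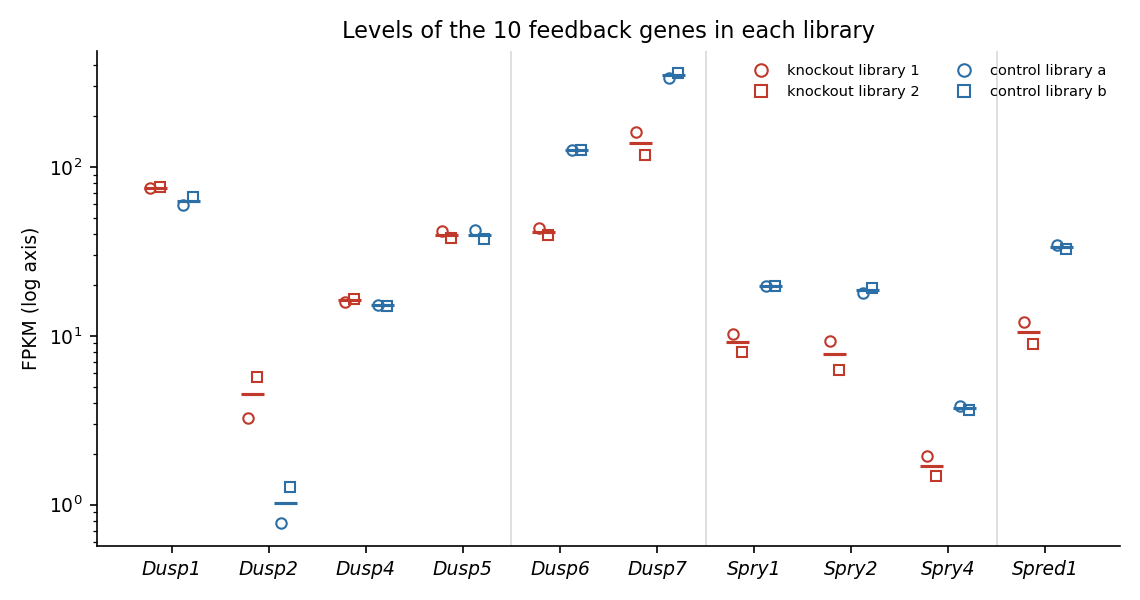
FPKM (log axis) of each gene in each library, knockout in red on the left and control in blue on the right, with a bar at the mean of each pair of libraries. Vertical lines part the nuclear phosphatase genes, the cytoplasmic phosphatase genes, the Sprouty genes and Spred1. From Dusp6 rightwards both knockout libraries lie below both control libraries for every gene.

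Promoters are shown for genes that were lower in knockout and for genes that were not. RefSeq windows on GRCm38.p6, from 250 bases before to 50 bases after the transcription start, were matched for 8 of the 10 genes, all but Dusp4 and Spry4. Capitals mark matches, on either strand, to these motifs: the CArG box of serum response factor, the cyclic AMP response element TGACGTCA, the AP-1 site TGANTCA, the ETS core CCGGAA, the GC box GGGCGG, the CCAAT box CCAAT, the TATA box TATAAA and the E box CACGTG. No marked match overlaps another in the windows printed. The windows of Dusp6 (chr10:99262981-99263280, plus strand), Spred1 (chr2:117120821-117121120, plus strand) and Spry2 (chr14:105896770-105897069, minus strand) belong to genes that were lower in knockout. Those of Dusp1 (chr17:26508423-26508722, minus strand), Dusp2 (chr2:127335909-127336208, plus strand) and Dusp5 (chr19:53528895-53529194, plus strand) belong to genes that were not.
Dusp6: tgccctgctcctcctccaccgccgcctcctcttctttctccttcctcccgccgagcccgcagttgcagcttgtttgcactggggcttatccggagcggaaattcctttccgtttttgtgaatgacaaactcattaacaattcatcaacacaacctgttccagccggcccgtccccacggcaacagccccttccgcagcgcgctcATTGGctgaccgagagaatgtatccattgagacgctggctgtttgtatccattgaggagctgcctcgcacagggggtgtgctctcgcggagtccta
Spred1: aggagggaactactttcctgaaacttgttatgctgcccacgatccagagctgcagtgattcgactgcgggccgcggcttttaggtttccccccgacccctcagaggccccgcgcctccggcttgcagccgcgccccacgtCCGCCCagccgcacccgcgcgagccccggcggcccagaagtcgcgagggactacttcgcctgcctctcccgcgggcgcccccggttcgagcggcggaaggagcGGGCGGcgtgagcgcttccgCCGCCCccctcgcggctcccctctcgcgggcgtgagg
Spry2: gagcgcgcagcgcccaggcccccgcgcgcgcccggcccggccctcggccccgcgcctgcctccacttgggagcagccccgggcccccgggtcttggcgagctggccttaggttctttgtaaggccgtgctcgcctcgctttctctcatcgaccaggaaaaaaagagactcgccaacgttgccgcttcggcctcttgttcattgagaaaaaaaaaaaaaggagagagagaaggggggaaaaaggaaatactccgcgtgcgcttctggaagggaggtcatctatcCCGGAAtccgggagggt
Dusp1: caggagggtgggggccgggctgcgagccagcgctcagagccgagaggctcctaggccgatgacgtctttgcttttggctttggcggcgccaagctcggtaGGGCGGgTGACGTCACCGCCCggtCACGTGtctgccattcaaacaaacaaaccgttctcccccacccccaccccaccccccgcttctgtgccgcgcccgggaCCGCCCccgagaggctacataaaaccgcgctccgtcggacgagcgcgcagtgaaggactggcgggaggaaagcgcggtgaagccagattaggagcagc
Dusp2: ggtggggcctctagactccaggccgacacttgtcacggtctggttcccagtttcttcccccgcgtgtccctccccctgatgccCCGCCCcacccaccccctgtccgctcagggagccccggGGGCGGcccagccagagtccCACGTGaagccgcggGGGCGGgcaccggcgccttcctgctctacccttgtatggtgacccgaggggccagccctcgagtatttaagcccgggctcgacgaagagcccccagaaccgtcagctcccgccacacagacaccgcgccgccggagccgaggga
Dusp5: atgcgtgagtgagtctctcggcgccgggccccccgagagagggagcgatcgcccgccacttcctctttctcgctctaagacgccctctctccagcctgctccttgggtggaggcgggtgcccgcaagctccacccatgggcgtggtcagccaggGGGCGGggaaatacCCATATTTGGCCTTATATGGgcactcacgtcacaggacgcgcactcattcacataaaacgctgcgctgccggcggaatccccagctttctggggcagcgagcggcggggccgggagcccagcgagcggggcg

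No motif was shared by all windows of the genes that were lower. The Dusp6 window held a CCAAT box on the reverse strand, its first base 46 bases before the start, and no other searched motif. Spred1 held 3 GC boxes and Spry2 a single ETS core that began at base 34 after the start. The unprinted windows of Dusp7 and Spry1 each held a GC box and a CCAAT box. The 3 windows of nuclear phosphatase genes each held at least 1 GC box as well. Of the 8 windows, Dusp5 alone held CArG boxes, a pair side by side starting 82 and 72 bases before the transcription start, and Dusp1 alone held a cyclic AMP response element starting 143 bases before it. Dusp1 and Dusp2 each held an E box. Of the 32851 windows in the RefSeq table, 1.63% held a CArG box, 1.79% a cyclic AMP response element, 7.15% an E box, 14.9% an ETS core, 35.7% a GC box and 37.4% a CCAAT box. AP-1 sites and TATA boxes occurred in 7.81% and 13.6% of all windows and in none of the 8. These matches describe letters in a short window and say nothing of binding. GC content ran from 57.3% (Dusp6) to 78.7% (Dusp7), all above the median of all windows, 52.7%.

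Dusp6, whose product is the cytoplasmic phosphatase most closely tied to ERK, stood at 43.3 and 39.3 FPKM in the knockout libraries, against 125.1 and 125.2 FPKM in the control libraries. Both knockout values lie far below the controls, whose spread is under 1 FPKM. Its log2 fold change was -1.58 (SE 0.07, 95% interval -1.76 to -1.39, limma adjusted p = 0.000313). Only 373 of the 12046 tested genes, Dusp6 included, had a log2 fold change as low or lower.

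Dusp7 encodes the closest relative of DUSP6 in this set and was the most abundant of the 10 transcripts in every library. It stood at 160.2 and 116.9 FPKM in knockout, against 338 and 358 FPKM in control. The groups did not overlap, though the knockout libraries differed from each other more than the control libraries did. The log2 fold change was -1.34 (SE 0.16, limma adjusted p = 0.00188). Dusp7 supplied 43.02% and 36.9% of the summed FPKM of the 10 genes in knockout and 51.5% and 52.9% in control. The sum itself was 372 and 317 FPKM in knockout and 657 and 678 FPKM in control, so the total transcript level of the set was 0.516 times that of control.

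Spred1 encodes a membrane-associated inhibitor that brings the Ras inactivator neurofibromin to Ras, and it had the lowest fold change of the 10, close to that of Dusp6. Its level was 11.98 and 8.95 FPKM in knockout, against 34.5 and 32.5 FPKM in control. Both knockout libraries were far below both control libraries. The log2 fold change was -1.60 (SE 0.14, 95% interval -1.97 to -1.23, limma adjusted p = 0.000932). Of all tested genes, 357 were as low or lower.

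The Sprouty genes were lower by similar factors. Spry1 stood at 10.2 and 8.05 FPKM in knockout, against 19.7 and 19.7 FPKM in control (log2 fold change -1.04, SE 0.12, limma adjusted p = 0.00201). Spry2 stood at 9.28 and 6.31 FPKM in knockout, against 18.0 and 19.3 FPKM in control (-1.18, SE 0.18, limma adjusted p = 0.00399). Spry4, the least abundant of them, stood at 1.94 and 1.47 FPKM in knockout, against 3.85 and 3.63 FPKM in control (-0.82, SE 0.13, limma adjusted p = 0.00483). For each gene both knockout libraries were below both control libraries. Their proportions to one another were close in both groups: the FPKM ratio of Spry4 to Spry1 was 0.190 and 0.182 in knockout and 0.196 and 0.184 in control, and that of Spry2 to Spry1 was 0.909 and 0.784 in knockout and 0.913 and 0.979 in control. Because 1 is added before the logarithm, the value for Spry4 depends on that constant: it was -1.10 with 0.1 added and -0.38 with 5 added, called in both cases.

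In all 6 of these genes knockout library 2 was lower than knockout library 1, with a median log2 difference of -0.35. Among the 4073 genes called lower, 66.7% were lower in library 2, and their median log2 difference was -0.09. Without library 1, the log2 fold changes of Dusp7, Spry2 and Spred1 were -1.57, -1.42 and -1.79. Without library 2 they were -1.11, -0.93 and -1.41, and all of these were called.

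**Figure D2:**
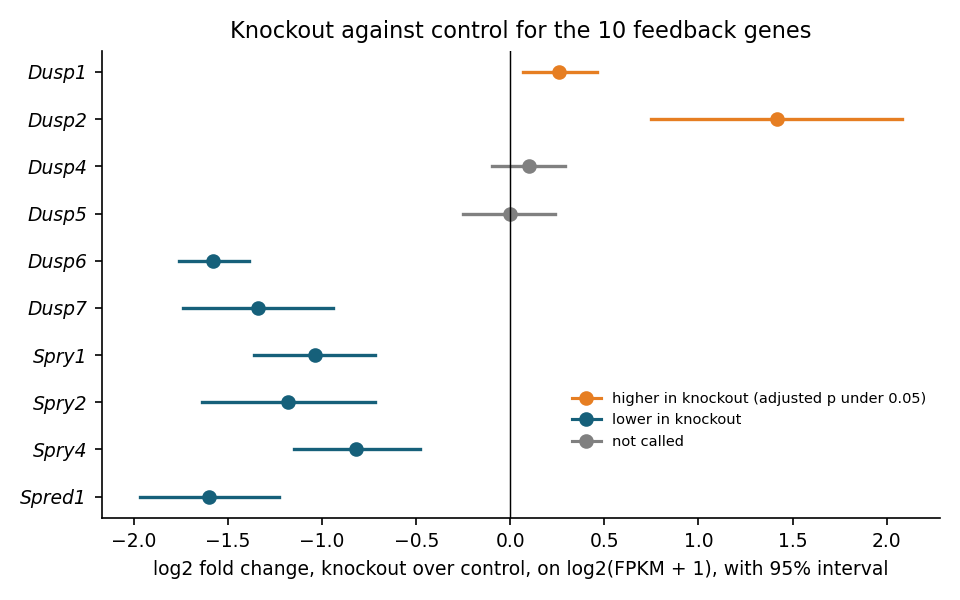
Log2 fold change of each gene, knockout over control, on the log2(FPKM + 1) scale, with limma's 95% interval as a horizontal line. The 6 genes from Dusp6 down lie wholly below 0, between -1.60 and -0.82, and the intervals of Dusp4 and Dusp5 span 0.

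The nuclear inducible phosphatase genes did not fall. Dusp1, an immediate early gene whose product acts on p38 and JNK as well as ERK, stood at 74.8 and 75.8 FPKM in knockout, against 59.3 and 65.9 FPKM in control. This is 1.20 times the control mean (log2 fold change 0.26, SE 0.07, limma adjusted p = 0.0297). The groups are close together, and the call did not hold in 6 of 14 alternative analyses. The limma adjusted p was 0.244 when control library a was left out, 0.056 when control library b was and 0.0539 when knockout library 2 was. The call was also missed with quantile normalization (adjusted p = 0.0954), without a trend in the variance (0.0547) and after removal of a trend with transcript length (0.0856).

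Dusp4, which encodes a nuclear phosphatase of ERK and JNK, stood at 15.9 and 16.5 FPKM in knockout, against 15.1 and 15.1 FPKM in control. Dusp5, whose product is specific for nuclear ERK, stood at 41.5 and 37.7 FPKM in knockout, against 42.3 and 37.2 FPKM in control. The knockout and control libraries overlapped for Dusp5, and for Dusp4 the difference was about 1 FPKM. The log2 fold changes were 0.10 for Dusp4 (95% interval -0.10 to 0.29, limma adjusted p = 0.309) and -0.0043 for Dusp5 (-0.25 to 0.24, limma adjusted p = 0.972). These intervals lie above the values of all 6 genes that were lower.

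Dusp2, which is known mainly from activated lymphocytes and myeloid cells, was the rarest of the phosphatase transcripts. It stood at 3.27 and 5.72 FPKM in knockout, against 0.777 and 1.27 FPKM in control. Both knockout libraries were above both controls, and the spread within each group was wide for its level. The group mean was 4.40 times that of control, and the log2 fold change was 1.42 (SE 0.26, 95% interval 0.75 to 2.08, limma adjusted p = 0.00718). With 0.1 in place of 1 added before the logarithm it was 2.02, and with 5 added 0.65, called in both cases.

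Markers of immune cells were also mostly higher in knockout. All 8 tested T cell markers and 6 of 7 B cell markers were higher, against 30.1% of all tested genes. The remaining B cell marker, Blnk, was called lower (log2 fold change -0.51, limma adjusted p = 0.00799). It stood at 16.7 and 19.5 FPKM in knockout and 25.7 and 26.7 FPKM in control. Cr2 (0.640 and 0.519 FPKM in control) and Pax5 (0.870 and 0.663 FPKM in control) passed the filter only through their knockout libraries. Summed T cell markers stood at 37.3 and 40.6 FPKM in knockout and 17.4 and 14.1 FPKM in control. Summed B cell markers stood at 49.7 and 78.6 FPKM in knockout and 39.5 and 41.6 FPKM in control, where Blnk supplied most of the sum. Dusp2 and the B cell list were both higher in knockout library 2 than in library 1, with log2 differences of 0.65 for Dusp2 and a median of 0.58 for the list. The same median was 0.1 for the T cell list, 0.26 for macrophages, 0.22 for neutrophils and 0.36 for skeletal muscle. Macrophage markers were higher in 5 of 7 cases, with sums of 606 and 706 FPKM in knockout and 480 and 444 FPKM in control. No marker of these lists was at 0 in all libraries. The part of these cells in the level of Dusp2 was not tested, and in RNA of whole tumours fewer cells of a type and less RNA per cell cannot be told apart.

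Markers of squamous epithelium were mostly lower. Marker genes named singly were chosen after their values were seen. The shares over all tested genes were 33.8% lower and 30.1% higher, 63.9% in either direction. Of the 8 squamous markers, 5 were lower, the cornified envelope gene Sprr1b was higher, and the lineage factor gene Trp63 and Krt10 were not called. Their summed level was 3859 and 3760 FPKM in knockout and 6443 and 6598 FPKM in control, 0.584 times as high. The 5 lower markers stood at 0.470 (Krt6a) to 0.731 (Krt13) times their control means. Trp63 stood at 85.8 and 70.5 FPKM in knockout and 80.3 and 84.6 FPKM in control (log2 fold change -0.08, limma adjusted p = 0.528). Fibroblast markers were called in 1 of 7 cases (Thy1, higher), skeletal muscle markers in 0 of 7, and neutrophil markers in 4 of 4 tested, 3 of them higher. Endothelial markers were higher in 2 of 3 tested and lower in 1. All 5 tested salivary secretory markers were higher, with sums of 4841 and 1077 FPKM in knockout and 6.79 and 36.9 FPKM in control. The neutrophil marker Csf3r and the salivary markers Pip, Dcpp1 and Smr3a were higher but would not have passed the filter on their control libraries alone. The part of a change in cell content in the feedback genes was not tested.

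Within a library, the phosphatase genes stood in another order in knockout than in control. The FPKM ratio of Dusp6 to Dusp1 was 0.578 and 0.519 in knockout, against 2.11 and 1.90 in control. In control tumours Dusp6 was thus the more abundant of the pair, and in knockout tumours Dusp1 was. The ratio of Dusp6 to Dusp5 was 1.04 and 1.04 in knockout, against 2.96 and 3.36 in control. Summed over roles, the cytoplasmic phosphatase genes stood at 203 and 156 FPKM in knockout and 463 and 484 FPKM in control. The nuclear phosphatase genes stood at 135.5 and 135.7 FPKM in knockout and 117.5 and 119.5 FPKM in control.

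Over all 10 genes the order of the levels differed as well. In knockout it was Dusp7, Dusp1, Dusp6, Dusp5, Dusp4, Spred1, Spry1, Spry2, Dusp2 and Spry4, by mean FPKM from high to low. There Dusp6 and Dusp5 overlapped, as did Spred1 with Spry1 and Spry1 with Spry2. In control it was Dusp7, Dusp6, Dusp1, Dusp5, Spred1, Spry1, Spry2, Dusp4, Spry4 and Dusp2. In control the values of Spry1 (19.7 and 19.7 FPKM) and Spry2 (18.0 and 19.3 FPKM) lay close together, and those of the other neighbours did not overlap. Dusp4 (16.2 FPKM on average) was more abundant than Spred1 (10.5 FPKM) in knockout, whereas in control Dusp4 (15.1 FPKM) was below Spred1 (33.5 FPKM).

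**Figure D3:**
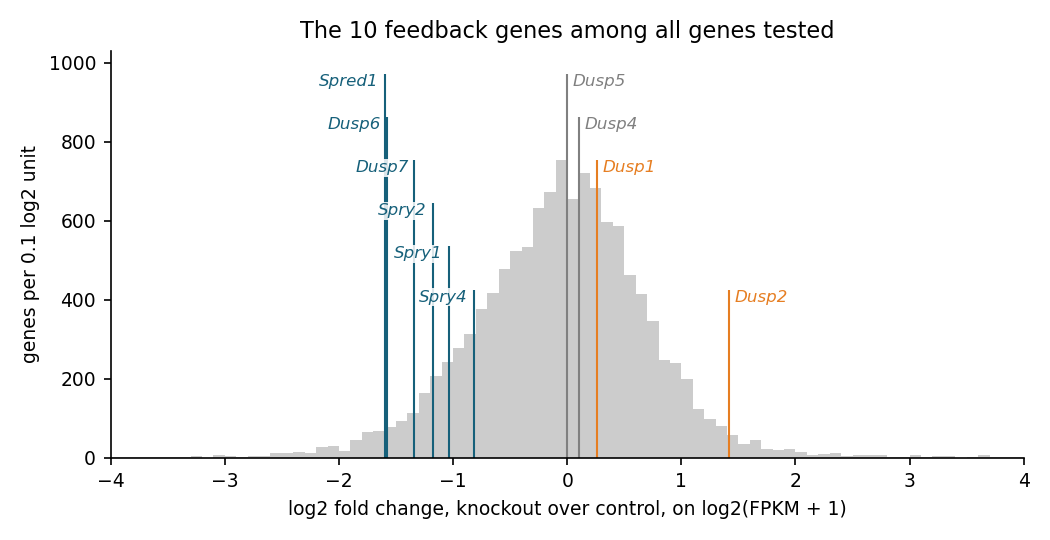
Histogram of the log2 fold changes of all tested genes, in steps of 0.1, with the 10 genes marked as labelled lines. The 62 genes beyond 4 in either direction are not drawn. The 6 lower genes lie on the left flank, Dusp4, Dusp5 and Dusp1 near the centre and Dusp2 on the right flank.

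The 10 genes are compact for the most part. Their longest annotated transcripts in GENCODE M21 have 2 to 4 exons, apart from Spred1 with 7, against a median of 8 over the tested genes. Transcript lengths ran from 1617 nucleotides (Dusp2) to 6016 nucleotides (Spred1), against a median of 3255. In an alternative fit, a smooth trend of each library's deviations from the gene means with transcript length was removed from its log2 values. The log2 fold changes were then -1.27 for Spred1, -0.62 for Spry4 and -1.62 for Dusp6, and the same 6 genes were called lower.

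The other dual-specificity phosphatase genes, listed as other MAP kinase phosphatases without a check of their substrates, divided in both directions. Of 9 tested, 4 were higher and 3 lower, with a median of -0.04. Dusp10 and Dusp18 rose: Dusp10, whose product acts on p38 and JNK, stood at 7.61 and 7.96 FPKM in knockout and at 1.92 and 1.97 FPKM in control (log2 fold change 1.58, limma adjusted p = 0.000483), and Dusp18 rose by 1.47. Dusp14 and Dusp22 were the other two that rose, by 0.63 and 0.64. Dusp3 fell by 1.12. Dusp8 and Dusp16, whose products also prefer JNK and p38, fell by 1.44 and 1.52, Dusp16 to 8.80 and 6.07 FPKM in knockout, against 24.2 and 21.6 FPKM in control. Dusp8 passed the filter only through its control libraries, the group in which it was higher (0.976 and 0.735 FPKM in knockout). Dusp9, the remaining cytoplasmic ERK phosphatase gene, stood at 4.01 and 4.25 FPKM in knockout and 4.73 and 3.85 FPKM in control (-0.04, limma adjusted p = 0.798). Dusp8, Dusp9, Dusp14 and Dusp22 are named after their values were seen.

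Other inhibitors of receptors and Ras were mostly lower. Of 18 tested genes 14 were lower and 1 higher, with a median log2 fold change of -0.86. Among those lower, Spred3, named after its values were seen, passed the filter only through its control libraries (0.598 and 0.679 FPKM in knockout). Spred2, the relative of Spred1, stood at 13.3 and 10.7 FPKM in knockout and 29.8 and 30.7 FPKM in control (log2 fold change -1.27, limma adjusted p = 0.00101). Nf1, which encodes the neurofibromin that SPRED1 recruits, fell by 1.22, and the Ras GTPase-activating protein gene Rasa1 by 1.05. With the length trend removed their log2 fold changes were -0.70 and -0.88. Socs5, a suppressor of cytokine and EGF receptor signalling, fell furthest of the genes named by rule in this list, by 2.11. Errfi1, an ERK-induced inhibitor of the EGF receptor, fell by 0.77. The 1 gene that rose was Pebp1, which encodes a RAF-binding inhibitor and was named after its values were seen, at 294 and 279.6 FPKM in knockout and 178 and 184 FPKM in control.

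Upstream of Ras, receptor and adaptor genes were lower as well. Among receptor tyrosine kinases 7 of 9 tested were lower and none higher, with a median of -0.99. After removal of the length trend 1 was called higher. Igf1r, the insulin-like growth factor receptor gene, fell by 2.06, Erbb3 by 1.36 and Erbb2 by 1.33. With the length trend removed these log2 fold changes were -1.55, -1.03 and -1.10. Egfr, named after its values were seen, stood at 25.3 and 25.3 FPKM in knockout and 26.4 and 25.5 FPKM in control (log2 fold change -0.03, limma adjusted p = 0.675). Among adaptors and exchange factors 8 of 11 were lower and 1 higher, with a median of -0.68. Over all tested genes 33.8% were lower and 30.1% higher. The gene that was higher, Rasgrp1, named after its values were seen, passed the filter only through its knockout libraries (0.710 and 0.633 FPKM in control). With a filter of 5 FPKM none was called higher. Ptpn11, which encodes the phosphatase SHP2, fell by 1.20, and the adaptor genes Crk and Shc1 by 0.85 and 0.82.

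Genes of the kinase cascade itself were called in both directions. Of 14 tested core genes 5 were higher and 3 lower, with a median log2 fold change of -0.0006. Rras, which encodes a Ras-related GTPase, stood at 59.9 and 55.3 FPKM in knockout and 89.1 and 87.8 FPKM in control (log2 fold change -0.61, limma adjusted p = 0.00163). Mapk3, the ERK1 gene, rose by 0.40. Without control library a or b the core counts were 3 higher and 1 lower in each case. Substrates and transcription factors of the pathway were lower in 10 of 17 cases and higher in 1, with a median of -0.44. Rps6ka2, a kinase gene of the RSK family, fell by 1.31, Elk3 by 0.96 and Ets2 by 0.86, the last pair encoding ETS factors.

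Transcripts that ERK is known to induce changed in both directions, 10 of 21 lower and 5 higher, with a median of -0.30. Ccnd1, the cyclin D1 gene, stood at 102 and 100.5 FPKM in knockout, against 255 and 255 FPKM in control (log2 fold change -1.32, limma adjusted p = 0.000297). The cytokine gene Lif fell by 1.90, and Etv5, an ETS factor gene often induced together with Dusp6 and Spry4, by 1.43. The ephrin receptor gene Epha4 rose by 2.05. Of genes named after their values were seen, Myc fell by 1.33 and the AP-1 gene Fosl1 by 0.97, whereas the immediate early genes Egr1 and Fos rose by 1.15 and 0.77. The share of called genes in these lists should be read beside the 63.9% of all tested genes that were called in either direction.

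**Figure D4:**
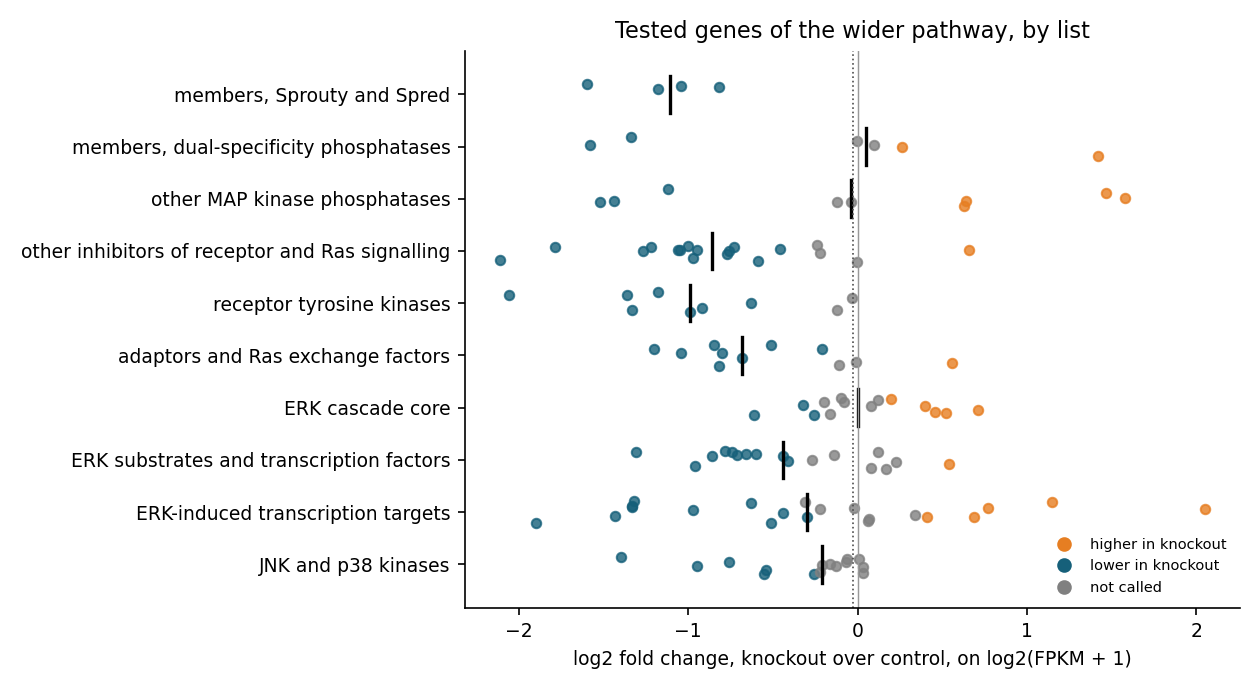
Log2 fold change, knockout over control, of each tested gene of the pathway lists, coloured by call, with a black bar at the median of each list and a dotted line at the median of all tested genes. The Sprouty and Spred genes all lie at or below -0.82, the ERK cascade core is centred near 0 and the ERK-induced targets spread from -1.90 to 2.05.

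Among 123 other tested genes of these lists and of the 10, the nearest in pattern to each member was found by Euclidean distance over the 4 libraries of centred log2 values. For Dusp6 these were the kinase gene Map3k5 (distance 0.18) and Spred1 (0.19). For Spred1 they were Dusp16 (0.11) and Etv5 (0.18), and for Dusp7 Spred2 (0.13) and Rps6ka2 (0.15). Spry1 lay nearest to the adaptor gene Frs2 (0.06) and the ubiquitin ligase gene Cbl (0.13), Spry2 to the receptor gene Met (0.07) and Dusp7 (0.17), and Spry4 to Errfi1 (0.05) and the adaptor gene Crkl (0.08). Dusp1 lay nearest to Hras (0.13) and Mapk3 (0.18), Dusp4 to the scaffold genes Lamtor3 (0.04) and Shoc2 (0.07), and Dusp5 to the ligand gene Ereg and the exchange factor gene Sos1 (0.10 each). Dusp2 had no close neighbour, with Dusp18 at 0.49 and Dusp10 at 0.51. With 4 libraries in 2 groups, such a distance reflects little beyond the size of the group difference.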

How the data were processed

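The values analysed, taken to be FPKM, were deposited by the authors for 14159 genes in 4 libraries. The submitters' processing notes name TopHat, Cufflinks and the mouse build mm9. No source used here gives their versions, the annotation or the strand setting, so reads of overlapping antisense genes may be mixed in. The sheet is named for another unit (CPM), but its columns summed to 592281 to 626719, values ran down to 1.8e-05, and the rank correlation of level with transcript length across 14031 genes was -0.085 to 0.013. Read depth is unknown, so no counting interval is given.

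The 12046 genes that reached 1 FPKM in 2 or more libraries entered a limma fit (version 3.58.1, R 4.3.3, eBayes with a trend) on log2(FPKM + 1), knockout against control, two-sided, with Benjamini-Hochberg adjustment over all tested genes and a threshold of 0.05. Fold changes understate those of low genes, and SE is the moderated standard error. The fit had 2 residual and 2.93 prior degrees of freedom. The 10 genes and all lists were chosen with earlier results of these data known. Named genes are the 10 members, Kdm4a, in each other pathway list the 3 genes with the smallest p, and the 2 nearest genes of each member, and others are said to be named after their values were seen. Of the genes this rule names, 2 are not reported here. Lists are described by counts and medians, with no test of the list. Alternatives were other pseudocounts (0.1 and 5), filters (none and 5 FPKM) and normalizations (quantile, median-ratio), eBayes without a trend or robust, removal of a length trend, omission of transcripts under 500 nt (GENCODE M21 lengths, matched for 99.1% of genes) and omission of each library.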

Additional observations from a re-analysis of the deposited data

How the results depend on the processing

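The 6 lower genes kept their direction and call in every alternative in which they were tested, 14 for each except Spry4, which a filter of 5 FPKM removed together with Dusp2. Their log2 fold changes ranged from -1.64 to -1.49 for Dusp6, -1.57 to -1.11 for Dusp7, -1.79 to -1.27 for Spred1, -1.19 to -0.81 for Spry1, -1.42 to -0.89 for Spry2 and -1.10 to -0.38 for Spry4. Dusp2 ranged from 0.65 to 2.02 and stayed called in 13 of 13, Kdm4a from -0.95 to -0.72, called in 14 of 14, and Dusp4 and Dusp5 were called in none of 14. The number of members called higher was 1 in place of 2 with the 5 FPKM filter, which removed Dusp2, and, through the loss of the call on Dusp1, with quantile normalization, eBayes without a trend and removal of the length trend. Leaving out each library gave 1 to 2. For Dusp1 the cause was not tested. The median over the members was -0.60 with a pseudocount of 5, which compresses low levels, and -0.93 with 1. The 24 pathway genes named for their p kept direction and call in all 336 alternative fits. Among list counts, substrates called lower were 7 in place of 10 with the length trend removed and 11 with the 5 FPKM filter. Other inhibitors called lower were 12 in place of 14 in both of these fits, and 15 with eBayes without a trend. Counts of genes called lower also shrank in several lists when a control library was left out. Such counts for the core cascade and for the JNK and p38 kinases are given elsewhere in the report. The small counts of genes called higher moved too. With the length trend removed they were 1 in place of 0 for receptor tyrosine kinases and for JNK and p38 kinases, and 2 in place of 1 for adaptors, for substrates and for other inhibitors. Adaptors called higher were 0 with the 5 FPKM filter or without knockout library 1, knockout library 2 or control library b, and substrates called higher were 2 with quantile normalization or without knockout library 2. No paired analysis was possible because both control columns carry the same name and so no replicate number. The unknown read depth limits the low genes Dusp2 and Spry4 most, and 2 libraries a group limit every interval.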

Other observations

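Genes of the stress-activated branch of MAPK signalling were mostly not called. Of 15 tested genes of the JNK, p38 and related kinases 6 were lower and none was higher in knockout, with a median log2 fold change of -0.21. The shares over all tested genes were 33.8% lower and 30.1% higher. After removal of the length trend 1 was called higher, and without control library b 3 were called lower. Map3k5, which encodes the stress-responsive kinase ASK1, stood at 4.45 and 3.84 FPKM in knockout and 12.3 and 12.9 FPKM in control (log2 fold change -1.40, SE 0.10, limma adjusted p = 0.000631). Mapk7 fell by 0.95 and the p38 beta gene Mapk11 by 0.76. The main p38 and JNK genes Mapk14 and Mapk9, named after their values were seen, stood at 24.1 and 23.2 FPKM in knockout and 26.1 and 25.8 FPKM in control, and at 17.03 and 16.6 FPKM in knockout and 17.04 and 16.5 FPKM in control. Neither was called (limma adjusted p = 0.157 and 0.951).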
